A study of Mus musculus with 20 samples.

Results

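Complement C1q is assembled from 3 chains, encoded by C1qa, C1qb and C1qc, and these genes were followed together with C3, Cfb, Cfp, C3ar1 and C5ar1 in macrophages sorted from fibrotic mouse liver. The 8 genes were taken by symbol from the 59311 genes of the expression table, each matched 1 gene, and all 8 passed the filter on low values that left 17248 genes for testing (a mean of at least 10 normalized counts in at least 1 group). RNA came from 10 male C57BL/6J mice, 10 to 12 weeks old at the start, that were all injected with carbon tetrachloride (CCl4, 0.6 ml/kg, 2 times a week for 4 weeks) to induce liver fibrosis. Mice 16 to 20 received Ac-6-FP (acetyl-6-formylpterin, 0.25 mg/kg), a folate derivative that binds the antigen-presenting molecule MR1 and keeps mucosal-associated invariant T (MAIT) cells inactive, and mice 11 to 15 received its vehicle, 1% DMSO in PBS. Injections were given 2 h before the last CCl4 dose and daily for 2 days after it. From each liver, CD11b+F4/80+ cells lacking Ly6G, CD11c and CD3 were sorted into a Ly6C hi and a Ly6C low fraction of monocytes and monocyte-derived macrophages (MoMac), which gave 20 libraries in 4 groups of 5. No mouse without CCl4 is among these libraries, so every value describes a fibrotic liver. A gate on CD11b and F4/80 does not by itself remove every resident macrophage, natural killer cell or dendritic cell.

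C1q recognises antibody complexes, dying cells and other surfaces and starts the classical complement pathway; unlike most complement proteins, which the liver parenchyma makes, it is produced mainly by macrophages and dendritic cells. C3 is the protein on which all complement pathways converge, factor B (Cfb) forms the C3-cleaving enzyme of the alternative pathway, and properdin (Cfp) stabilises that enzyme. The small fragments released from C3 and C5 act on myeloid cells through the receptors encoded by C3ar1 and C5ar1.

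The C1q genes lie side by side on the minus strand of mouse chromosome 4 (mm10), C1qb at chr4:136880133-136886196, C1qc at chr4:136889802-136892915 and C1qa at chr4:136895916-136898844, within 18712 bases in all. Since the neighbouring genes had their higher mean in the same fraction, with C1qb alone past the test in the fit over all mice, the 250 bases before the start of C1qb (chr4:136886201-136886450) and of C1qc (chr4:136892915-136893164) are shown 5′ to 3′ on the minus strand, from the RefSeq promoter table of build GRCm38.p6, which is the build mm10. Of the 8 genes, 6 had an entry there (not C1qa or Cfb). Capitals mark GAGGAA, the core of sites bound by the myeloid factor PU.1, or TTCCTC, the same motif on the other strand.

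C1qb: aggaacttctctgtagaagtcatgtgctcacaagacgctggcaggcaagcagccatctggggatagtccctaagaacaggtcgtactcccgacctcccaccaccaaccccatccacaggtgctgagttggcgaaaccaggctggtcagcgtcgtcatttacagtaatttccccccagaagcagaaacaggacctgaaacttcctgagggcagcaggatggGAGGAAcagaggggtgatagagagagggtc

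C1qc: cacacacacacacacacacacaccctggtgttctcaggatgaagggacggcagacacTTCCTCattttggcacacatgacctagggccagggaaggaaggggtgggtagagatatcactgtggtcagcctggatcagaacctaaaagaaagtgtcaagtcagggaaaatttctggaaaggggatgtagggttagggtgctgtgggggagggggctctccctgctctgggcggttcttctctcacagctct

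The motif lies at -30 to -25 of the C1qb start and at -193 to -188 of the C1qc start in RefSeq. Another annotation, GENCODE M21, starts C1qc at chr4:136893065, inside the window shown, so the position of the motif depends on the annotation. In the window from 250 bases before to 50 bases after the start, 28.3% of 32851 RefSeq promoters hold it on either strand, so its presence does not set these genes apart. TGCTGAC, a core of sites bound by Maf factors, was in none of the 6 windows and in 4.67% of all promoters. TATAAA was found in the windows of C3 (14 to 19 bases after the start) and C3ar1 (-235 to -230), against 13.6% of all promoters, and GAGGAA occurs 2 times after the Cfp start (6 to 11 and 22 to 27 bases after it, on the other strand).

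Values are normalized counts, the reads counted on a gene divided by a size factor of the library, without division by gene length, so levels are compared between libraries and not between genes. Reads on genes ranged from 5693049 to 18682437 per library. Detection was uneven: of 6652 genes with a median of at least 100 normalized counts, 41.6% were listed at 0 in the Ly6C low library of mouse 13, and 10.4 to 13.1% in the Ly6C hi libraries of mice 12, 13 and 14 and in the Ly6C low library of mouse 14, which are all vehicle libraries. In the libraries of Ac-6-FP mice the highest share was 5.80%. Therefore, a member listed at 0 there cannot be read as not expressed, and results that mouse 13 moves are also given without it. The sort was visible in Ly6c2, which encodes a Ly6C antigen: it ranged from 4930 to 10012 in the Ly6C hi and from 284 to 1014 in the Ly6C low libraries, without overlap. Adgre1 (F4/80) had a mean of 2693 ± 552 and 3104 ± 1890 (SD, n = 10) in Ly6C hi and Ly6C low, and Itgam (CD11b) of 1680 ± 689 and 2118 ± 1238, with 2.09 in the Ly6C low library of mouse 13.

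The first question was how the members differ between the fractions of the same liver. Of the 8 members, 4 were higher in Ly6C low MoMac (C1qb, Cfb, C3ar1 and C5ar1) and Cfp was higher in Ly6C hi MoMac at an adjusted p below 0.05 (limma on within-mouse differences of log2(normalized count + 1), 10 mice, Benjamini-Hochberg over 17248 genes). Across all genes tested, 5.22% passed this threshold, 3.41% with the higher level in Ly6C low and 1.81% with the higher level in Ly6C hi. C1qa, C1qc and C3 missed it, with adjusted p from 0.0522 to 0.0701 by limma. The median difference over the 8 members was 1.62 on the log2 scale, against 0.03 over all genes tested, with 6 members above 0 and 2 below. The number of members past the threshold depended on which mice were included. It was 8 without mouse 13 (with 1125 of all genes) and 7 without mice 12, 13 and 14 (with 876, C5ar1 being the member that missed it, adjusted p = 0.0861 by limma), against 900 genes with all mice. It was 5 without mouse 14, 3 without mouse 15, 2 without mouse 11, 12, 16 or 18, and 1 without mouse 17, 19 or 20. By edgeR it was 4, and 1 without mouse 15. No alternative fit changed the direction of any of them.

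**Figure D1:**
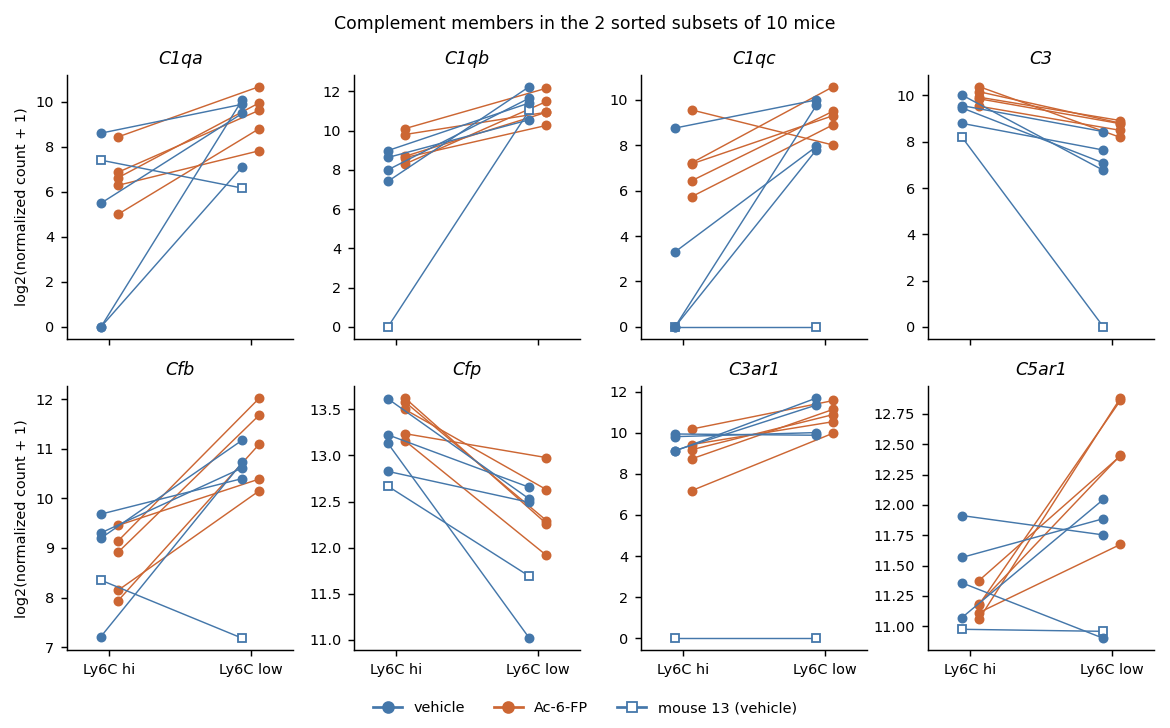
Level of each member in the 20 libraries, as log2(normalized count + 1), with a line joining the Ly6C hi and the Ly6C low library of each mouse. Vehicle mice are blue, Ac-6-FP mice orange and mouse 13 has open squares; all 10 lines rise for C1qb (lowest Ly6C low value 1233, highest Ly6C hi value 1099.8) and all 10 fall for C3 and Cfp.

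Among the C1q chains, C1qb gave the clearest separation. Its normalized counts ranged from 0 to 1099.8 (median 395) in the Ly6C hi libraries and from 1233 to 4867 (median 2419) in the Ly6C low libraries. The fractions did not overlap, which held for 1.4% of all genes tested, and the Ly6C low library was higher in 10 of 10 mice, which held for 1.98%. The within-mouse difference was 3.42 on the log2 scale (SE 0.73, adjusted p = 0.0169 by limma), and the ratio of the means of the normalized counts was 6.09. The largest single difference, 11.04, came from mouse 13, whose Ly6C hi library listed C1qb at 0. Without that mouse the difference was 2.63 (SE 0.31, adjusted p = 0.000583 by limma), that is smaller but with less spread. Leaving out 1 of the mice 12, 16, 17, 18, 19 or 20 moved its adjusted p to between 0.0532 and 0.0705 (limma), with differences from 3.27 to 3.53.

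C1qa, the A chain, ranged from 0 to 391 (median 87.7) in Ly6C hi and from 71.0 to 1646 (median 758) in Ly6C low libraries, and it was higher in Ly6C low in 9 of 10 mice. The exception was mouse 13, with 169 in the Ly6C hi and 71.0 in the Ly6C low library. The difference was 3.50 (SE 0.92, adjusted p = 0.0522 by limma), with an exact sign-flip p of 0.00391 for this gene taken alone. Without mouse 13 it was 4.18 (SE 0.77, adjusted p = 0.00853 by limma). The lowest Ly6C hi values were 0 in mice 12 and 14, and the ratio of the means, which depends less on such zeros, was 5.58. C1qa passed the threshold in 6 of 20 alternatives, among them the fit without the pairing by mouse (adjusted p = 0.0432 by limma). Its adjusted p was 0.225 by edgeR and 0.0748 to 0.141 by limma when any mouse other than 13 was left out.

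C1qc, the C chain, ranged from 0 to 749.6 (median 69.2) in Ly6C hi and from 0 to 1534 (median 556) in Ly6C low libraries. It was higher in Ly6C low in 8 mice, lower in mouse 18 (749.6 in Ly6C hi and 256 in Ly6C low), and at 0 in both libraries of mouse 13. The difference was 3.36 (SE 0.95, adjusted p = 0.0701 by limma, exact sign-flip p = 0.0117), and 3.95 without mouse 13 (SE 0.85, adjusted p = 0.0207 by limma). It passed the threshold in 4 of 20 alternatives (adjusted p = 0.134 by edgeR). The chains thus shared their direction in all but 3 of the 30 within-mouse comparisons: C1qa and C1qc in mouse 13 and C1qc in mouse 18.

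**Figure D2:**
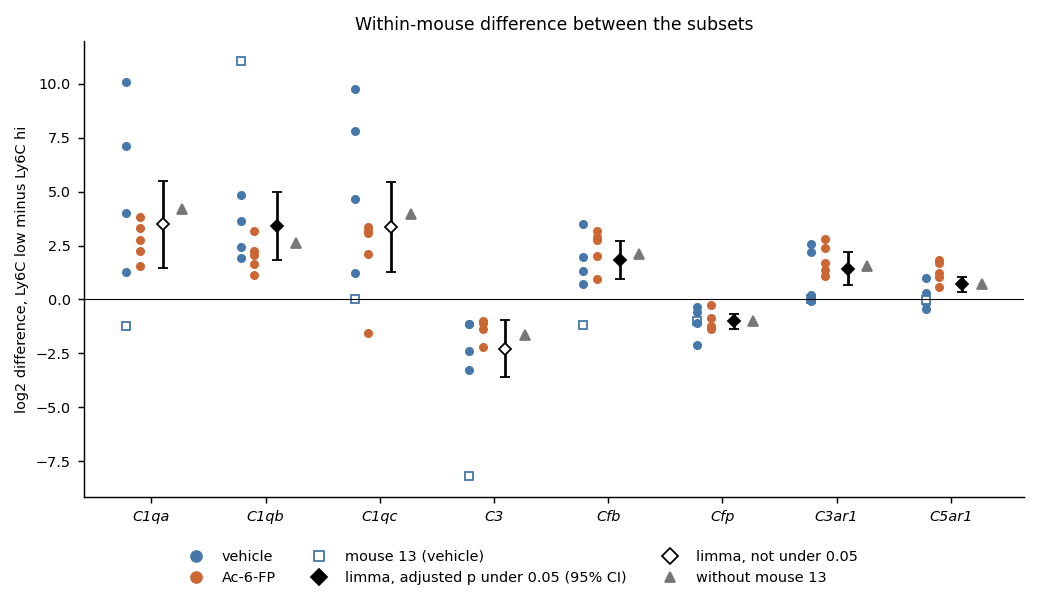
Within-mouse difference Ly6C low minus Ly6C hi on the log2(normalized count + 1) scale for each member, with 1 point per mouse, the limma estimate with its 95% confidence interval (filled where the adjusted p is below 0.05) and the estimate without mouse 13 (triangles). The points of mouse 13 lie apart for C1qb (11.04) and C3 (-8.20), and the triangles keep the sign of every estimate.

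The genes of the alternative pathway split. Cfb was higher in Ly6C low: it ranged from 148 to 821 (median 522) in Ly6C hi and from 144 to 4155 (median 1632) in Ly6C low libraries, and was higher in Ly6C low in 9 of 10 mice, mouse 13 again being the exception. The difference was 1.81 (SE 0.40, 95% CI 0.93 to 2.69, adjusted p = 0.0219 by limma), and 2.12 without mouse 13 (SE 0.32, adjusted p = 0.00246 by limma). Leaving out mouse 11, 15, 16, 17, 19 or 20 instead moved the adjusted p to between 0.0592 and 0.0794 (limma), with differences from 1.71 to 1.85. Cfb lies at chr17:34856379-34862514 and is overlapped on the same strand by Gm20547, a protein-coding gene model, so reads shared with it cannot be told apart here.

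Cfp and C3 were higher in Ly6C hi in 10 of 10 mice, a pattern found in 1.87% of all genes tested. Cfp, on the X chromosome, ranged from 6499 to 12629 (median 9612.5) in Ly6C hi and from 2067 to 8062 (median 5388) in Ly6C low libraries, with a difference of -1.01 (SE 0.17, 95% CI -1.37 to -0.65, adjusted p = 0.00299 by limma). It had the narrowest interval of the 8 members and passed the threshold in all 20 alternative fits, including each fit with 1 mouse left out. C3 ranged from 293 to 1336 (median 841) in Ly6C hi and from 0 to 482 (median 318) in Ly6C low libraries. Its difference was -2.28 (SE 0.61, adjusted p = 0.0542 by limma), with an exact sign-flip p of 0.00195, the smallest that 10 mice can give. C3 was listed at 0 in the Ly6C low library of mouse 13, and without that mouse the difference was -1.66 (SE 0.27, adjusted p = 0.00425 by limma). C3 passed the threshold in 5 of 20 alternatives (adjusted p = 0.136 by edgeR).

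Both anaphylatoxin receptors were higher in Ly6C low. C3ar1, the receptor for C3a, ranged from 0 to 1159 (median 569) in Ly6C hi and from 0 to 3302 (median 1689) in Ly6C low libraries. It was higher in Ly6C low in 8 mice, at 0 in both libraries of mouse 13, and a little lower in mouse 14 (980.3 in Ly6C hi and 940 in Ly6C low). The difference was 1.43 (SE 0.35, adjusted p = 0.0353 by limma), and 1.56 without mouse 13 (SE 0.31, adjusted p = 0.0143 by limma). Without the pairing by mouse its adjusted p was 0.639, and leaving out mouse 11, 12, 16, 17, 18, 19 or 20 gave 0.0573 to 0.0937 (limma). C5ar1, the receptor for C5a, ranged from 2010.1 to 3852 (median 2319) in Ly6C hi and from 1909 to 7548 (median 4006) in Ly6C low libraries, with a difference of 0.70 (SE 0.17, adjusted p = 0.0323 by limma). It was higher in Ly6C low in 7 of 10 mice, namely all 5 Ac-6-FP mice and 2 of the 5 vehicle mice. Its adjusted p was 0.0715 by edgeR, and 0.0536 to 0.0972 by limma when mouse 11, 12, 15, 17, 18, 19 or 20 was left out.

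Other transcripts moved with the fractions too, and their part in these results was not tested. In bulk samples, more cells of a type and more RNA per cell cannot be told apart. Of the 5 tested Kupffer cell markers, Marco was higher in Ly6C low; the summed level of the 6 listed markers ranged from 0 to 246 in Ly6C hi and from 0 to 847 in Ly6C low libraries, while Clec4f, a defining marker, was at 0 in 7 and 6 of 10 libraries and Timd4 in 10 and 8. In the Ly6C low libraries other than that of mouse 13, where all 6 were at 0 along with many other genes, the sum was 47.1 to 847. Dendritic cell markers summed to 83.8 to 535 in Ly6C hi and 4702 to 19404 in Ly6C low, with 2 of 6 called higher (Flt3 and Cd209a), and Zbtb46 at 0 in 9 and 7 of 10 libraries. Their sum in Ly6C low was led by Cd209a, with a mean of 11870 against 20.3 to 166 for the other dendritic cell markers. T and NK cell markers summed to 0 to 589 and 22013 to 49079.5, with Ncr1, Klrb1c and Nkg7 called higher and Cd3e at 0 in 10 and 8 of 10 libraries. Of 8 neutrophil markers, 4 were called higher (Camp, Ngp, Retnlg and Cxcr2) and Mmp8 lower in Ly6C low. Ly6g was at 0 in 4 and 4 libraries, and the sums ranged from 8756 to 15089 and from 10463 to 130531. Retnlg had a mean of 40889.5 in Ly6C low, against 4142 for S100a8, the next highest, and Mmp8 led in Ly6C hi (7356). Camp, Ngp and Cxcr2, like Ncr1, were at 0 in 9 of 10 Ly6C hi libraries and passed the filter only through Ly6C low. Counts of calls that include these genes are no sign of a direction.

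Hepatocyte markers summed to 665 to 1434 in Ly6C hi and to 1672 to 4285 in Ly6C low, with Apoa1 and Apoa2 called higher among 6 tested; hepatocytes are a main source of C3 and factor B in the body. Of these, Cfb was higher in Ly6C low in 9 of 10 mice and C3 was lower in 10 of 10. The part of hepatocyte transcripts in either level was not tested. In the endothelial list (0 to 4451 in Ly6C low, 31.9 to 338 in Ly6C hi) Clec4g was called higher, and in the B cell list (0 to 1131 and 80.2 to 743) Cd79a, while none of 3 tested stellate cell and fibroblast markers was called (0 to 306 and 0 to 968). All 5 Ly6C high monocyte markers were called lower in Ly6C low, 2 of 6 Ly6C low monocyte markers (Ace and Treml4) were called higher, and none of 6 general macrophage markers passed the threshold.

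**Figure D3:**
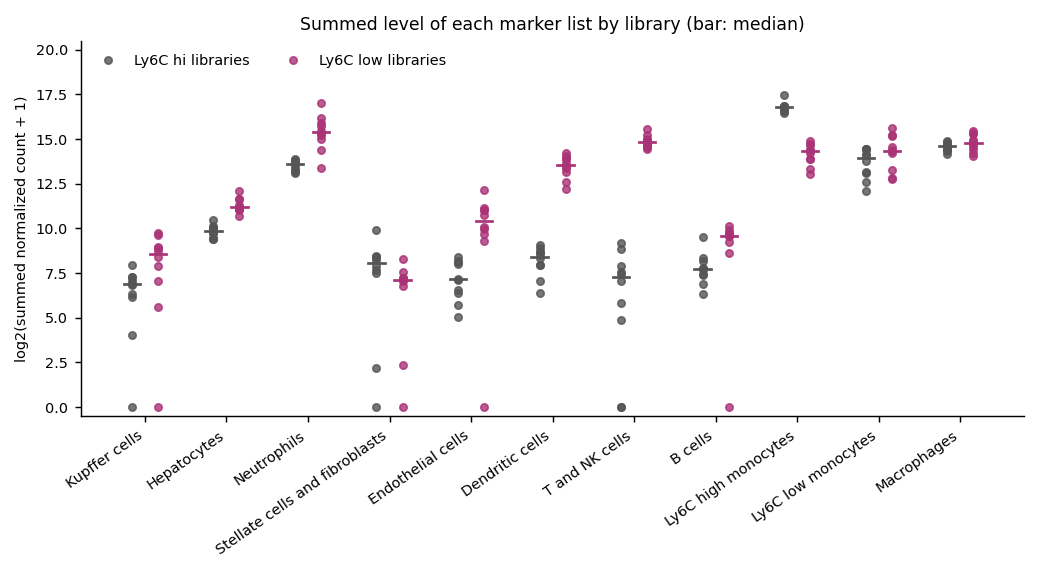
Summed normalized count of each marker list in the Ly6C hi (grey) and Ly6C low (purple) libraries, as log2(sum + 1), with a bar at the median. T and NK cell sums reach 589 in Ly6C hi and lie at 22013 or more in Ly6C low libraries, whereas macrophage sums overlap. Single genes lead some sums, such as Cd209a (dendritic cells) and Retnlg (neutrophils) in Ly6C low.

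Whether the MR1 ligand moved complement genes was asked within each fraction, 5 treated against 5 vehicle mice. None of the 8 members passed the threshold in Ly6C hi (lowest adjusted p = 0.543 by limma) or in Ly6C low MoMac (lowest adjusted p = 0.528 by limma), where 0.0754% and 0.0522% of all genes did. None had treatment groups that did not overlap either, a pattern found in 1.35% of all genes in Ly6C hi and in 1.5% in Ly6C low. At an unadjusted limma p below 0.05 there were 2 members in Ly6C hi (C1qc and C3) and 1 in Ly6C low (C5ar1). Of all genes tested, 8.73% in Ly6C hi and 9.31% in Ly6C low had such a p. By edgeR on the recovered reads, the unadjusted p was 0.456 for C1qc and 0.0760 for C3 in Ly6C hi, and 0.0142 for C5ar1 in Ly6C low. No member passed the adjusted threshold by edgeR in either fraction.

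**Figure D4:**
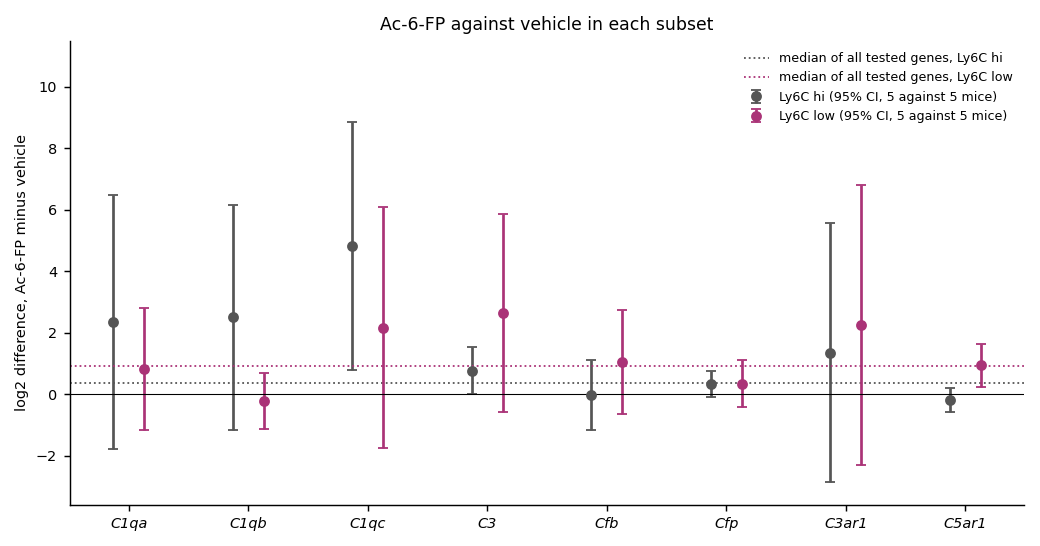
Ac-6-FP minus vehicle in Ly6C hi (grey) and Ly6C low (purple) MoMac on the log2(normalized count + 1) scale, with 95% confidence intervals from limma for 5 against 5 mice. Dotted lines mark the median of all genes tested, 0.35 in Ly6C hi and 0.91 in Ly6C low.

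Both medians lay above 0, and the libraries with few genes detected were among the vehicle groups (9017 to 14606 genes in vehicle against 11096 to 15587 in Ac-6-FP Ly6C hi libraries, and 5343 to 15723 against 11156 to 15766 in Ly6C low). With the number of genes detected in the model the medians were 0.01 and 0.06, and without mice 12, 13 and 14 they were 0.00 in both fractions. The counts of members above 0, 6 of 8 in Ly6C hi and 7 of 8 in Ly6C low, stand against 62.9% and 70.5% of all genes.

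C5ar1 was the member with the lowest adjusted p in Ly6C low MoMac. Its values were 3449, 3785, 1987, 1909 and 4227 in vehicle mice 11 to 15 and 3267, 5421, 5437, 7548 and 7444 in Ac-6-FP mice 16 to 20. The highest 4 values were all from Ac-6-FP mice, but mouse 16 fell within the vehicle range. Macrophage markers summed to 16711 to 31091 in vehicle and 24879.7 to 43969.7 in Ac-6-FP Ly6C low libraries, Ly6C low monocyte markers to 6820 to 23605 and 19120.3 to 49958, and Kupffer cell markers to 0 to 493 and 337 to 847. Dendritic cell markers summed to 9209 to 19404 in vehicle and 4702 to 15229 in Ac-6-FP, and neutrophil markers to 10463 to 61852 and 21458 to 130531. Of 6 macrophage markers, 4 had a difference above 0 and 2 below it (Cd68 -0.12 and Mertk -1.12). No marker gene was called for Ac-6-FP, and the part of these lists in the differences of C5ar1 and C3 was not tested. The difference of C5ar1 in Ly6C low was 0.94 (SE 0.31, 95% CI 0.24 to 1.64), against a median of 0.91 over all genes, with an unadjusted p of 0.0138 and an adjusted p of 0.528 (limma) and an exact permutation p of 0.0317. It was 0.80 without mouse 13, against a median of 0.35 over all genes, and 0.55 without mice 12, 13 and 14 (SE 0.34), against a median of 0.00. In Ly6C hi MoMac the values were 3852, 3033, 2010.1, 2622 and 2149 in vehicle and 2211, 2656, 2324, 2129 and 2313 in Ac-6-FP mice, a difference of -0.20 (SE 0.17, adjusted p = 0.687 by limma).

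Tested directly, the change of C5ar1 with Ac-6-FP was 1.13 higher in Ly6C low than in Ly6C hi on the log2 scale (SE 0.33, 95% CI 0.40 to 1.86, unadjusted p = 0.00559, adjusted p = 0.83 by limma, exact permutation p = 0.0159). The within-mouse difference averaged 1.27 ± 0.51 in Ac-6-FP and 0.13 ± 0.55 in vehicle mice (SD, n = 5). For this comparison the median of all genes was 0.27, and it was -0.01 without mouse 13, where the value for C5ar1 was 1.10 (SE 0.35). The result did not pass the correction over all genes, and neither did any other gene (0.0% of 17248 by limma). No gene passed the adjusted threshold by edgeR either. At an unadjusted limma p below 0.05 there were 840 genes.

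C3 had higher values with Ac-6-FP in each fraction, without passing the test. In Ly6C low MoMac they were 108, 346, 0, 134 and 199 in vehicle and 290.4, 439, 482, 445 and 359 in Ac-6-FP mice, a difference of 2.65 (SE 1.43, adjusted p = 0.564 by limma, exact permutation p = 0.0159). The groups overlapped through mice 12 and 16, and without mouse 13 the difference was 1.16 (SE 0.36, unadjusted p = 0.0113, adjusted p = 0.64 by limma), against a median of 0.35 over all genes. In Ly6C hi MoMac the values were 1036, 755, 293, 705 and 443 in vehicle and 1336, 927, 972, 1146 and 741 in Ac-6-FP mice, a difference of 0.77 (SE 0.33, adjusted p = 0.565 by limma). The median over all genes there was 0.35. Without mouse 13 the difference was 0.51 (SE 0.26, adjusted p = 0.727 by limma), against a median of 0.29.

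For the C1q chains the treatment differences had wide intervals. In Ly6C hi MoMac C1qc was 8.85, 431, 0, 0 and 0 in vehicle and 52.5, 144, 749.6, 85.9 and 149 in Ac-6-FP mice. Its log2 difference of 4.82 (95% CI 0.79 to 8.84, adjusted p = 0.543 by limma) was taken against 3 zeros in vehicle, and the exact permutation p was 0.0397 on the log2 scale and 0.444 on the linear scale. It was 4.21 (SE 1.87) without mouse 13 and 1.43 by edgeR. Without mice 12, 13 and 14 it was 5.58 (SE 1.34, adjusted p = 0.717 by limma), against vehicle values of 8.85 and 0. C1qb in Ly6C hi differed by 2.50 (95% CI -1.17 to 6.16), and by 0.84 (SE 0.48) without mouse 13. C1qa in Ly6C hi differed by 2.34 (95% CI -1.79 to 6.48), with 0 in vehicle mice 12 and 14. Its ratio of means was 1.11, with an exact permutation p of 0.849 on the linear scale. The difference of C1qa was 3.12 without mouse 13, 3.42 without mouse 15, 1.27 without mouse 12 or mouse 14 and -0.41 without mice 12, 13 and 14. In Ly6C low the interval of C1qb was narrower, with 3240.1, 4867, 2108, 1509 and 2731 in vehicle, 1964, 1233, 4589, 2871 and 1961 in Ac-6-FP mice, and a difference of -0.23 (95% CI -1.13 to 0.68). C1qa and C1qc in Ly6C low differed by 0.83 (95% CI -1.15 to 2.81) and 2.16 (95% CI -1.76 to 6.08), and by 0.23 and 0.39 without mouse 13. The remaining members (Cfb, Cfp and C3ar1) differed by -0.03 to 1.34 in Ly6C hi and by 0.34 to 2.24 in Ly6C low, with C3ar1 the highest in each. Without mouse 13, C3ar1 differed by -0.56 in Ly6C hi and by 0.09 in Ly6C low, and Cfb in Ly6C low by 0.34 in place of 1.05.

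Of 52 other complement genes listed by class, all had an entry, 34 passed the filter on low values, and 8 were listed at 0 in all 20 libraries. Between the fractions, 3 of the 34 were called: Itgax and Itgb2 higher in Ly6C low and Fcnb higher in Ly6C hi. With 5.22% of all genes called in this comparison, so small a count does not set the list or any of its classes apart. The median difference of the 34 was 0.58, with 21 above 0, against a median of 0.03 and 51.2% above 0 over all genes. These values are no sign of a shared direction, since C4a, Mbl1, Mbl2, Masp1, Masp2 and Itgax were at 0 in all 10 Ly6C hi libraries and passed the filter only through Ly6C low. By class, 1 of 12 tested classical and lectin pathway genes, none of 2 terminal pathway genes, none of 10 regulators and 2 of 10 receptors and C1q-binding proteins were called. None of the 34 was called for Ac-6-FP in either fraction.

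**Figure D5:**
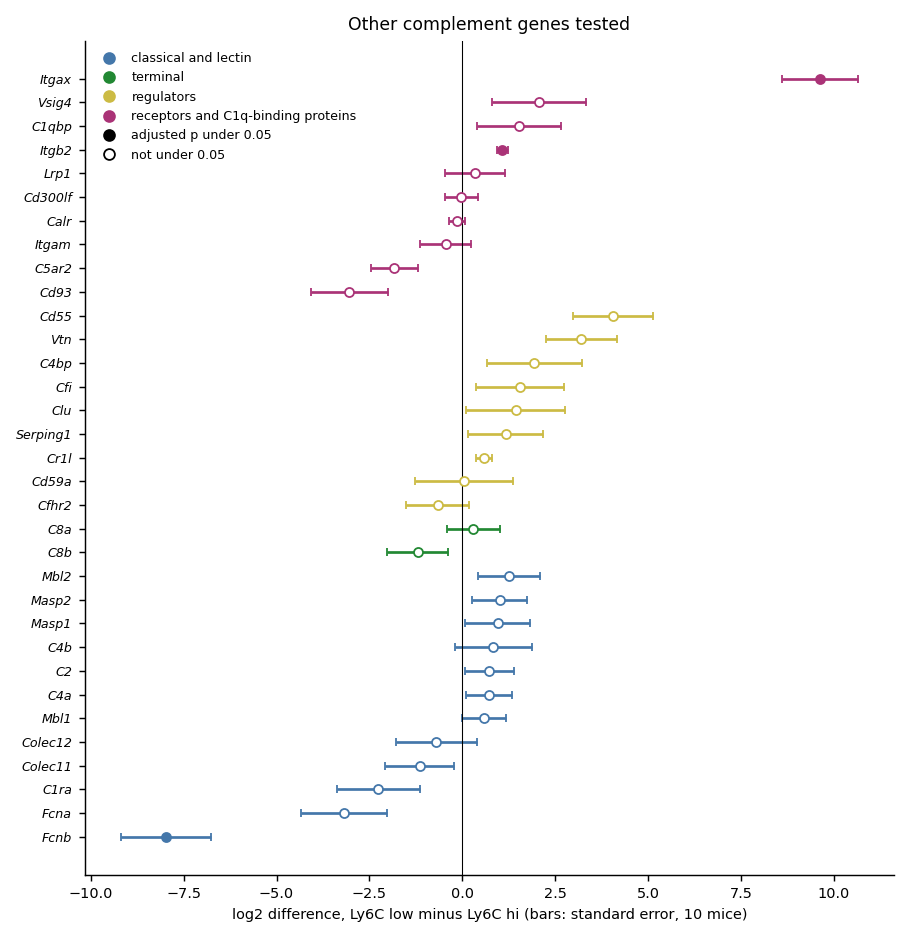
Within-mouse difference Ly6C low minus Ly6C hi, on the log2(normalized count + 1) scale, of 33 of the 34 other complement genes tested, by class, with standard errors over 10 mice. Filled points have an adjusted p below 0.05 by limma: Itgax and Itgb2 on the right and Fcnb on the left.

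Itgb2 and Itgax encode the beta chain and an alpha chain of the integrins that act as complement receptors for cleaved C3 (CR3 and CR4). Itgb2 ranged from 10886 to 19151 in Ly6C hi and from 8874 to 57077 in Ly6C low libraries, a difference of 1.08 (SE 0.15, adjusted p = 0.00111 by limma). Itgax was at 0 in all 10 Ly6C hi libraries and ranged from 0 to 3302 (median 1508) in Ly6C low libraries (adjusted p = 0.000127 by limma), although CD11c, its product, was gated out in both fractions. Against the counting limit of a 0, 3 reads per library or 2.64 normalized counts on average, its mean in Ly6C low of 1640.3 was 622-fold higher. This is no lower bound, since the limit leaves out uneven detection. In the Ly6C hi libraries of mice 12, 13 and 14, 10.4 to 13.1% of genes with a median of at least 100 were at 0. Itgam, the alpha chain of CR3, did not pass the test (-0.45, SE 0.68, adjusted p = 0.749 by limma), and the sign of this log2 difference goes against the means of 1680 in Ly6C hi and 2118 in Ly6C low, with 2.09 in the Ly6C low library of mouse 13. Fcnb, a ficolin that starts the lectin pathway and is made by myeloid cells, ranged from 265 to 1452 in Ly6C hi and was at 0 in 8 of 10 Ly6C low libraries, with 538 as the highest value there (difference -7.97, SE 1.20, adjusted p = 0.00177 by limma). The paralog pairs C4a and C4b, C1ra and C1rb, and C1s1 and C1s2 share sequence, and their counts are uncertain.

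C5ar2, which encodes the other C5a receptor, was looked at after its values were seen and did not pass the threshold. It ranged from 68.8 to 327 in Ly6C hi and from 0 to 213 in Ly6C low libraries, a difference of -1.83 (SE 0.63, adjusted p = 0.147 by limma), that is opposite in sign to C5ar1.

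The genes most like the C1q chains were found by Pearson correlation with the mean log2 level of C1qa, C1qb and C1qc among genes with a mean of at least 100. Over the 20 libraries these were Bin1 (r = 0.907), a gene without a symbol (r = 0.883), Tmem37 (r = 0.864), Cdca7l (r = 0.854) and the chemokine gene Ccl4 (r = 0.850), and all 5 had a higher mean in Ly6C low. Ccl4, for instance, had a mean of 2476 ± 1024 in Ly6C hi and 14050.3 ± 6404 in Ly6C low (SD, n = 10). Over the 10 within-mouse differences the list was another one, led by Cdca7 (r = 0.965) and followed by Lims1 (r = 0.904), Pdcd10 (r = 0.890) and 2 genes without a symbol. The libraries share mice and uneven detection, and these correlations are given as a description. On the same scale over 20 libraries, r with the C1q chains was 0.69 for Cfb, 0.64 for C3ar1, 0.61 for C5ar1, 0.02 for C3 and -0.27 for Cfp. Over the 10 within-mouse differences it was 0.06 for Cfb, -0.29 for C3ar1, -0.55 for C5ar1, -0.06 for C3 and -0.31 for Cfp.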

How the data were processed

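RNA of about 30000 sorted cells per library was made into low-input poly(A) libraries and sequenced as reads of 75 bases. Per the methods and the submitters' processing notes, reads were aligned with STAR 2.4.0 to mm10 and assigned to genes by their constitutive regions in FAST DB v2018_1; the strand setting is not given in the sources used here. The deposited values are signal values: the authors divided gene counts by a DESeq2 size factor per library. Whole reads were recovered for 99.972% of values (tolerance 0.006). In the Ly6C hi library of mouse 15, 1 read is worth nearly 1 normalized count, so its reads could not be checked in the same way, and edgeR was also run without this mouse. The confidence intervals are from limma and carry the spread between mice, whereas the limit given for Itgax covers counting error only.

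Here log2(normalized count + 1) was tested with limma 3.58.1 (R 4.3.3, variance trend over the mean level): within-mouse differences for fractions (10 mice) and their change with Ac-6-FP (5 against 5), and 5 against 5 mice within a fraction, with Benjamini-Hochberg adjustment over 17248 genes. Single members were tested with two-sided exact permutation tests (1024 sign flips, smallest p 0.00195; 252 assignments, smallest p 0.00794). Alternatives included edgeR 4.0.16 (quasi-likelihood) on recovered reads. Scripts were tested on simulated data. Tables and exact tests were made in Python 3.11.15 with scipy 1.17.1.

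The label number and the methods pair libraries by mouse; residuals of paired libraries correlated by 0.00334 to 0.250 (median 0.0338). The members, lists and tests were chosen with earlier results of these data known. Named were the members, other complement genes called, the 5 genes most like the C1q chains, sort genes and marker lists; Serpina1a of the hepatocyte list matched no row. The values of 1 complement gene are not reported here. Nothing in the labels describes separate experiments or batches.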

Additional observations from a re-analysis of the deposited data

Results flagged for a closer look

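In 6 of the 32 groups of 5 libraries (8 members, 4 groups), the lowest value stood apart from the other 4 on the log2 scale by Dixon's test (critical value 0.710), and all 6 were libraries of mouse 13. These were C1qb (0) and C3ar1 (0) in Ly6C hi vehicle, and C1qc (0), C3 (0), Cfb (144) and C3ar1 (0) in Ly6C low vehicle MoMac. Chance would flag about 1 in 20 separate groups. The members share libraries, so these 6 flags are not separate and are not set against that rate. The same Ly6C low library listed 41.6% of 6652 generally well-read genes at 0, and the Ly6C hi library of this mouse listed 10.5%.

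For C5ar1, the change with Ac-6-FP differed between the fractions by 1.13 on the log2 scale when the difference itself was tested with an exact permutation of the treatment labels (p = 0.0159, 5 against 5 mice). The adjusted p over all genes was 0.83 by limma, and from 0.0217 to 1.0 over its alternatives, the lowest of these in the fit that takes ratios to the vehicle mean and leaves out the spread between vehicle mice. The within-mouse difference was above 0 in 5 of 5 Ac-6-FP mice and in 2 of 5 vehicle mice.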

How the results depend on the processing

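The direction of all 8 members between the fractions held in all 20 alternatives, but the number past the threshold, 5, did not: it was 3 with a pseudocount of 0.1, 8 with a pseudocount of 10 or with genes detected as a covariate, 1 with edgeR without mouse 15, and from 1 to 8 with 1 mouse left out (1 without mouse 17, 19 or 20, 2 without mouse 11, 12, 16 or 18, 3 without mouse 15, 5 without mouse 14 and 8 without mouse 13). Over all genes the count of 900 was 1848 with the covariate, 511 with edgeR and 392 with edgeR without mouse 15. Leaving out the replicate block, that is the pairing by mouse, gave 5 members and 987 genes, but C3ar1 then missed the threshold (adjusted p = 0.639 by limma) and C1qa passed it (0.0432), and it gave 3 genes for the change with Ac-6-FP between fractions.

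No member passed the threshold for Ac-6-FP within a fraction under any alternative. Over all genes the 13 calls in Ly6C hi became 5 without a filter, 4 at a group mean of 100, 0 with the covariate or either edgeR fit, and 0 to 133 with 1 mouse left out (133 without mouse 11). The 9 calls in Ly6C low became 2 with a pseudocount of 10, no filter, the stricter filter or the covariate, 0 with either edgeR fit, 50 without mice 12, 13 and 14, and 0 to 103 with 1 mouse left out (103 without mouse 11). For the change between fractions, ratios to the vehicle mean gave 3 members (C1qb, C3 and C5ar1) and 2851 genes, since that fit leaves out the spread between vehicle mice; the stricter filter gave 2 genes and leaving out 1 mouse 0 to 4.

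Signs turned for treatment differences that were not called; the cause was not tested. For Ac-6-FP in Ly6C hi, Cfb became 0.08 to 0.20 without mouse 11, 14, 15, 16 or 20 (range over single mice -0.42 to 0.20), C3ar1 -0.56 without mouse 13 (to 1.93 without others) and -0.53 without mice 12, 13 and 14, and C1qa -0.41 without those 3. In Ly6C low, C1qc was -0.022 and C3ar1 -0.15 with the covariate, and C1qa -0.31 and Cfp -0.18 without mice 12, 13 and 14. For the change between fractions, C1qa was 0.10 without those 3 mice, and Cfp was -0.043 with TMM scaling, -0.049 and -0.050 with the edgeR fits with and without mouse 15, -0.18 without those 3 and -0.26 to 0.18 with 1 mouse left out; on the linear scale C1qa (exact p = 0.452), C1qc (0.754), C3 (0.444) and Cfp (0.468) turned sign. The 2 alternatives that left out mouse 15 from edgeR or mice 12, 13 and 14 were chosen after seeing the data. Low detection in vehicle libraries limits every comparison with vehicle, and a member at 0 in them is not shown to be absent.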
